A study of Drosophila melanogaster with 58 samples.

Results

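The 10 genes described here act in homologous recombination and in the first response to DNA breaks, and 9 of them are described by name: spn-B, spn-D, Rad51D, okr, Brca2, mre11, rad50, nbs and tefu. The 10 were chosen by their FlyBase symbols, and all 10 were found by FlyBase identifier among the 17559 genes counted in each RNA library. RNA was measured in 24 libraries of female Drosophila melanogaster wings, with 2 libraries in each of 12 groups. The transgenic groups were E2F wings, E2F + CycD wings and control wings, each at 24 h and 44 h after puparium formation (APF), and wild-type wings were taken at the third larval instar (L3) and at 6, 18, 24, 36 and 44 h APF. E2F wings carried UAS-E2F1 and UAS-DP, and E2F + CycD wings carried UAS-CycD and UAS-Cdk4 beside UAS-E2F1 and UAS-DP. All 3 transgenic genotypes, control (flp control) included, also carried hs-FLP, tub>CD2>GAL4, UAS-GFP and tub-gal80TS. A heat shock in second instar larvae removed the CD2 cassette, and a shift to higher temperature from the equivalent of 12 h APF released GAL4 from Gal80TS, so the transgenes ran from a ubiquitous tubulin driver in the cells that had recombined, not in a chosen cell type. The UAS-E2F1 and UAS-DP insertions sit on different chromosomes in the E2F and the E2F + CycD genotypes. The question is how far genes of break repair go with cell cycle exit, which wild-type wing cells reach at about 24 h APF and which the transgenes delay or bypass. By the authors' account, E2F wings have left the cell cycle at 44 h, whereas E2F + CycD wings then still divide.

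Homologous recombination repairs a broken DNA molecule by copying from an intact sister or homologue, and it is used mostly in cells that are replicating or have replicated their DNA. The Mre11, Rad50 and Nbs proteins form a complex that holds the broken ends and brings the kinase Tefu (ATM) to them. The resected ends are then made ready for strand exchange with the help of Brca2 and of the paralogues spn-B, spn-D and Rad51D, and the translocase encoded by okr (Rad54) acts in strand exchange. In flies spn-B, spn-D and okr are best known from oogenesis, where their loss leaves meiotic breaks unrepaired, and tefu and the Mre11 complex are also needed to protect telomeres. The transcription factor E2f1 with its partner Dp switches on many genes of DNA replication, and cyclin D with Cdk4 acts upstream of it by phosphorylating the retinoblastoma proteins that hold E2F in check.

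Matches to an E2F-type word near the start of transcription were looked for in every member, since 2 of the 3 transgenic genotypes carry UAS-E2F1 and UAS-DP. The search used TTCCCGC, the variant TTCGCGC, the variant TTGCCGC and the variant TTGGCGC on both strands, from 250 bases before to 50 bases after the outermost annotated start (Ensembl gene models, sequence of RefSeq Release 6, dm6). They were found in 3 of the 10 members, against 14.0% of 13968 protein-coding promoters and 9 of 12 genes of a list of replication and nucleotide supply genes. The 3 windows are shown, each of 30 bases along the gene's own strand with the matched word in capitals. The spn-B window is chr3R:14328009-14328038 on the plus strand, and its word begins 31 bases before the start and overlaps a second match on the opposite strand. The okr window is chr2L:2992721-2992750 on the minus strand, and its word begins 20 bases after the start. The tefu window is chr3R:15242229-15242258 on the minus strand, and its word begins 11 bases before the start.
spn-B: cacttaagataTTGGCGCcaacagctgatt
okr: tctatcagctgTTCGCGCtaccgccatttg
tefu: cgtggtattttTTGGCGCtctggcagaggt
The other members had no match in this window, rad50, Rad51D and mre11 among them. A match is a string of letters and was not tested for binding.

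The libraries held between 1900774 and 7512920 counts on genes in wild-type wings and between 11201219 and 16332737 in transgenic wings. Levels are CPM, a gene's counts relative to the total of its library after TMM scaling within each of these sets. A level of 3 counts was taken as the floor, which covers counting error only. Relative to library totals before TMM scaling, it was 0.399 to 1.58 CPM in wild-type and 0.184 to 0.268 CPM in transgenic libraries. A gene counts as called where its Benjamini-Hochberg adjusted p in edgeR's quasi-likelihood test was under 0.05 and its log2 fold change exceeded 1 in size. All 10 members passed the filter on low counts in the wild-type set and 9 in the transgenic set, where spn-D was not tested. Of 5 wing epithelium markers, each had at least 40.3 CPM in every library, and no library exceeded 3.53 CPM summed over 4 germline genes, of which between 0 and 2 were at 0 in both libraries of a group. Muscle markers summed to between 228 and 978 CPM in wild-type wings at 44 h against 72.7 to 149 CPM at 36 h, and their part in the results was not tested. In whole wings, fewer cells of a type and less RNA per cell cannot be told apart.

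The genes carried as transgenes were checked first. E2f1 had 3790 and 3750 CPM in E2F wings, 1340 and 908 CPM in E2F + CycD wings and 432 and 473 CPM in control wings at 24 h. At 44 h it had 3820 and 4410 CPM in E2F wings, 1590 and 1970 CPM in E2F + CycD wings and 104 and 132 CPM in control wings. Dp stood at 809 and 727 CPM in E2F wings, 154 and 129 CPM in E2F + CycD wings and 79.7 and 79.3 CPM in control wings at 24 h. E2f1 and Dp were thus lower in E2F + CycD wings than in E2F wings, and at 44 h Dp had 86.0 and 90.6 CPM in E2F + CycD wings against 65.3 and 57.7 CPM in control wings (log2 fold change 0.52 ± 0.15, adjusted p = 0.0116, edgeR), short of the fold threshold. CycD had 1770 and 1820 CPM in E2F + CycD wings against 27.1 and 27.4 CPM in control wings at 44 h. The counts do not separate transgene from endogenous transcripts.

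In wild-type wings 7 of the 10 members had their lowest mean level at 36 h, and rad50, tefu, mre11 and okr stood high at L3 and again at 18 h, while the wing still divides. The test over all 6 stages called 8 of the 10, close to the 74.7% of all tested genes called by it, so the count itself does not set the members apart. Brca2 and spn-B were not called. The call of nbs ended without 18 h replicate 1 (adjusted p = 0.0514) and, by its fold of 0.89, without 36 h replicate 2.

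**Figure D1:**
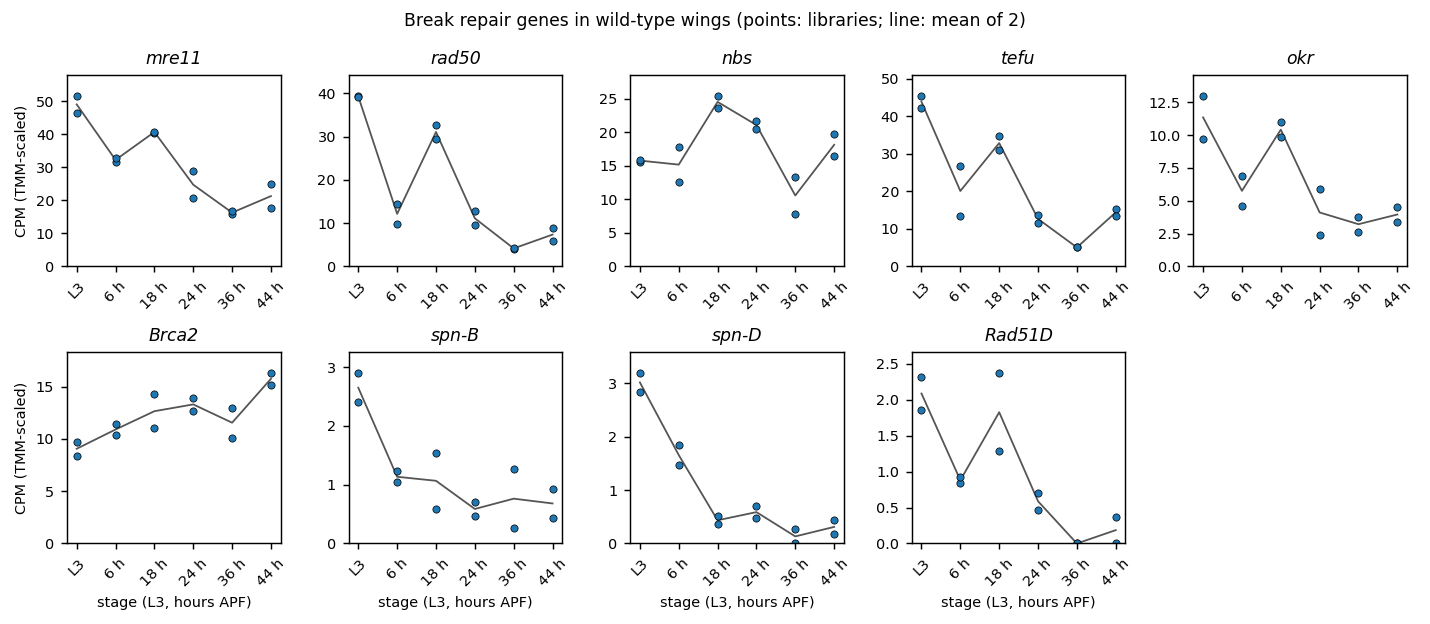
TMM-scaled CPM of 9 members (y axis, linear from 0, its own scale in each panel) at 6 stages of wild-type wings (x axis), with a point for each library and a line through the mean of 2. rad50, tefu and okr stand high at L3 and 18 h and low at 36 h, while Brca2 has its highest values, 16.3 and 15.2 CPM, at 44 h.

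Of the end-sensing genes, rad50 moved at most steps. It had 39.4 and 39.1 CPM at L3, 14.4 and 9.85 at 6 h, 29.5 and 32.6 at 18 h, 9.49 and 12.7 at 24 h, 3.98 and 4.28 at 36 h, then 8.90 and 5.76 at 44 h. The L3 and 18 h libraries all lie above those of the other 4 stages, and the 36 h libraries below every other. rad50, the coiled-coil ATPase of the complex, was 1.67 lower on the log2 scale at 6 h than at L3 (SE 0.25, adjusted p = 0.000195, edgeR) and 1.33 higher at 18 h than at 6 h (SE 0.25, adjusted p = 0.00105). It was again lower at 24 h than at 18 h, with a log2 fold change of -1.53 (SE 0.26, adjusted p = 0.00251), and at 36 h than at 24 h, with -1.36 (SE 0.32, adjusted p = 0.00514).

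tefu, which encodes the ATM kinase, followed a similar course. It had 42.3 and 45.5 CPM at L3, 26.7 and 13.5 at 6 h, 34.8 and 31.0 at 18 h, 11.6 and 13.7 at 24 h, 5.04 and 5.03 at 36 h, then 15.4 and 13.4 at 44 h. The 6 h libraries spread widely, and those at 36 h stand below all others. tefu was called lower at 6 h than at L3 (log2 fold change -1.10, SE 0.26, adjusted p = 0.0045), at 24 h than at 18 h (-1.42, SE 0.28, adjusted p = 0.00565) and at 36 h than at 24 h (-1.29, SE 0.33, adjusted p = 0.00905), and higher at 44 h than at 36 h (1.51, SE 0.32, adjusted p = 0.00392, edgeR throughout). Without 6 h replicate 2 its first step was -0.76, and with only the compared libraries that step had an adjusted p of 0.0595.

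mre11, which encodes the nuclease of the same complex, had 46.4 and 51.6 CPM at L3, 31.5 and 32.9 at 6 h, 40.5 and 40.8 at 18 h, 20.7 and 28.7 at 24 h, 15.9 and 16.6 at 36 h, then 25.0 and 17.5 at 44 h. Its largest fitted difference between stages, L3 over 36 h, was 1.59 on the log2 scale (adjusted p = 0.000234 over all stages, edgeR), and no single step passed both thresholds. nbs, the adaptor that recruits ATM, had 15.6 and 15.9 CPM at L3, 12.5 and 17.8 at 6 h, 25.4 and 23.6 at 18 h, 20.4 and 21.7 at 24 h, 13.3 and 7.80 at 36 h, then 19.7 and 16.5 at 44 h. Unlike its partners it stood higher at 18 h than at L3, and its L3 libraries lie between those of 6 h.

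Among the strand exchange genes, okr had 9.71 and 13.0 CPM at L3, 6.89 and 4.62 at 6 h, 9.84 and 11 at 18 h, 5.86 and 2.35 at 24 h, 2.65 and 3.77 at 36 h, then 4.56 and 3.34 at 44 h. The L3 and 18 h libraries lie above all the others, and the largest fitted difference was 1.79 on the log2 scale (adjusted p = 0.00309 over all stages, edgeR). Brca2 had 9.71 and 8.41 CPM at L3, 10.4 and 11.4 at 6 h, 14.3 and 11 at 18 h, 13.9 and 12.7 at 24 h, 13.0 and 10.1 at 36 h, then 16.3 and 15.2 at 44 h. Its lowest libraries are those of L3 and its highest those of 44 h, in a range that did not pass the test over all stages (largest difference 0.78, adjusted p = 0.0906).

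The paralogues spn-B, spn-D and Rad51D were close to the floor. spn-B had 22 and 10 counts at L3 and between 1 and 6 counts in each of the other 10 wild-type libraries. spn-D had 26 and 11 counts at L3, 7 and 6 at 6 h, 3 and 2 at 18 h, 6 and 1 at 24 h, 1 and 0 at 36 h, then 2 and 1 at 44 h, so that outside L3 and 6 h a level could hardly be read. Rad51D had 17 and 8 counts at L3, 4 and 3 at 6 h, 20 and 5 at 18 h, 6 and 1 at 24 h, 0 and 0 at 36 h, then 0 and 2 at 44 h. Its mean of 2.08 CPM at L3 makes it at least 2.69-fold lower at 36 h, with 3 counts in each library as the floor (0.775 CPM on average after TMM scaling). The exon bases of Rad51D overlap CG42382 on the other strand over 43.2% of their length. CG42382 had means of 9.26 CPM at 36 h and 11.1 CPM at L3, and kept its reads where Rad51D had none.

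By step, the calls were few. At 6 h against L3, 2 of 10 members were called lower (rad50 and tefu), beside 15.1% of all tested genes. At 18 h against 6 h, rad50 was called higher (14.9% of genes) and spn-D lower (17.7% of genes), with a ratio of its summed counts of 0.251 (95% exact interval 0.0699 to 0.749, counting error only). The spn-D call (adjusted p = 0.0399) did not outlast DESeq2 (0.208), the replicate block (0.0538) or the loss of any of the 4 libraries compared (0.116 to 0.280). At 24 h against 18 h, the step at which wing cells leave the cell cycle, 2 of 10 members were called lower, rad50 and tefu, beside 5.10% of genes. Without 24 h replicate 1 neither was called (adjusted p = 0.0652 for rad50 and 0.0997 for tefu), and without 18 h replicate 1 tefu was not (0.0504), with log2 fold changes of -1.29, -1.28 and -1.32. The remaining 24 h library is the shallowest of all. The same pair was called lower at 36 h against 24 h, beside 11.1% of genes, although tefu missed the threshold without 36 h replicate 2 (adjusted p = 0.0608), and tefu alone was called higher at 44 h against 36 h, beside 10.7% of genes.

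At 24 h against 18 h the members stood between the typical gene and the replication genes, a difference that was not tested. The median log2 fold change over the 10 members was -0.67, against 0.03 over all 8669 tested genes and -2.88 over 12 genes of replication licensing and nucleotide supply, of which all 12 were called lower. Mcm5, a subunit of the replicative helicase, changed by -3.95 (SE 0.37, adjusted p = 6.09e-05). Among repair lists, 3 of 7 crosslink repair genes were called lower with a median of -1.86 (FANCI, -2.40), 3 of 10 junction resolution genes with a median of -0.86 (the helicase RecQ4, -3.21), 3 of 12 checkpoint genes with a median of -0.55 (Claspin, a mediator of the replication checkpoint, -3.87), and 2 of 6 end joining genes with a median of -0.89 (XRCC1, -1.71). Of the 3 genes of resection and single-strand binding tested, 2 were called lower, the exonuclease gene tos by -1.69. Of 4 telomere capping genes 2, and of 5 cohesin genes 1, were called lower. HipHop, which caps telomeres, changed by -1.95 and the cohesin subunit SMC3 by -1.12. None of 5 SMC5/6 genes, and none of the 3 meiotic break and crossover genes that could be tested, was called.

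E2F wings showed a large rise of most members. At 24 h, 7 of the 9 tested were called higher than in control wings, beside 9.88% of all tested genes, and at 44 h 6 of 9, beside 12.6%. The median log2 fold change over the members was 2.54 at 24 h and 1.68 at 44 h, against -0.01 and -0.07 over all genes tested. rad50, tefu, okr, mre11, Rad51D and spn-B were called at both stages, and nbs and Brca2 at neither.

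**Figure D2:**
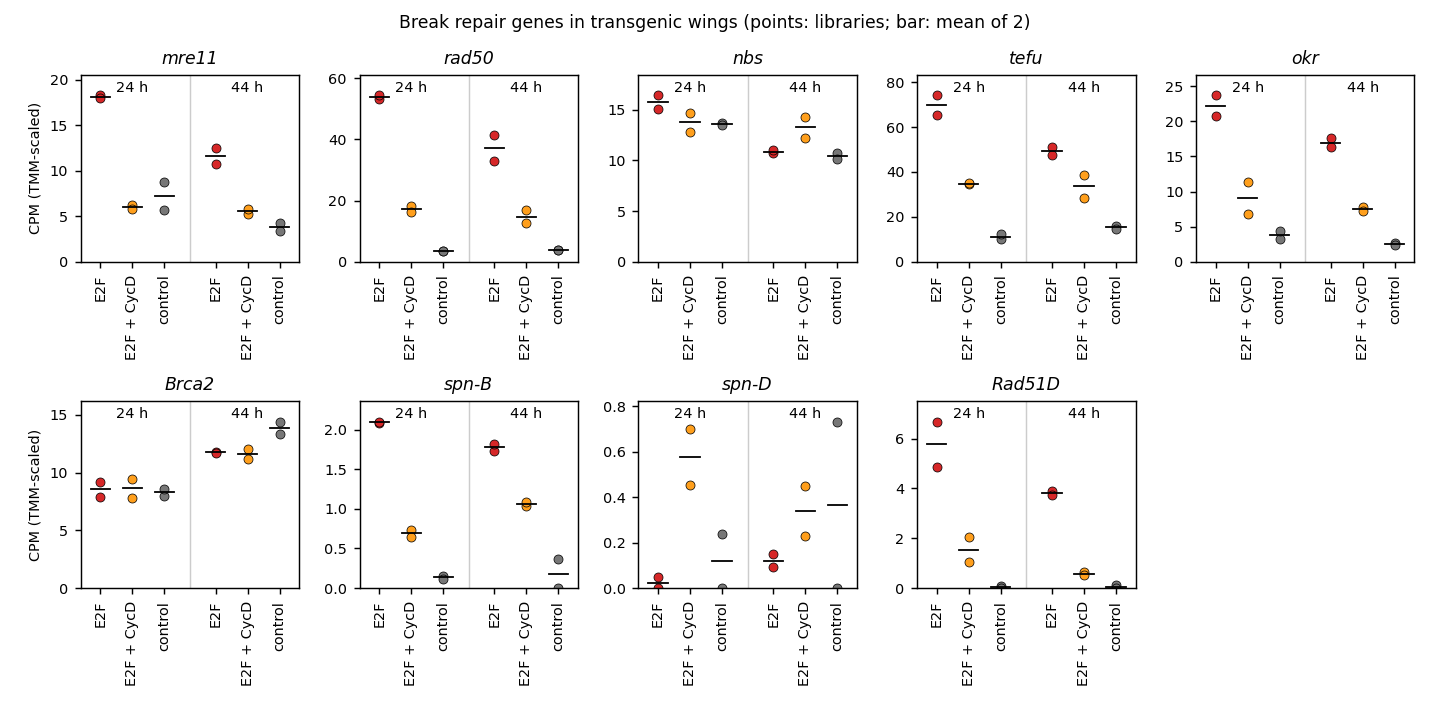
TMM-scaled CPM of 9 members (y axis, linear from 0, its own scale in each panel) in E2F, E2F + CycD and control wings at 24 h and 44 h APF (x axis), with a point for each library and a bar at the mean of 2. rad50 and tefu separate the 3 genotypes at both stages, mre11 is highest in E2F wings at both stages, and nbs and Brca2 lie close together in all genotypes.

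rad50 had 53.2 and 54.4 CPM in E2F wings against 3.49 and 3.58 CPM in control wings at 24 h, and 41.4 and 33.1 CPM in E2F wings against 3.78 and 3.76 CPM in control wings at 44 h. The groups are far apart at both stages, with log2 fold changes of 3.92 (SE 0.19, adjusted p = 6.56e-08) and 3.30 (SE 0.20, adjusted p = 4.63e-07, edgeR). tefu had 65.3 and 74.1 CPM in E2F wings against 10.1 and 12.2 CPM in control wings at 24 h, and 51.2 and 47.5 CPM in E2F wings against 16.0 and 14.8 CPM in control wings at 44 h. Here too no libraries overlap, and the log2 fold changes were 2.64 (SE 0.17, adjusted p = 7.22e-07) and 1.68 (SE 0.17, adjusted p = 2.03e-05). mre11 had 18.3 and 18.0 CPM in E2F wings against 8.81 and 5.66 CPM in control wings at 24 h, and 10.7 and 12.5 CPM in E2F wings against 4.27 and 3.37 CPM in control wings at 44 h. No libraries of its groups overlap, and its log2 fold changes were 1.34 (SE 0.21, adjusted p = 0.000783) and 1.60 (SE 0.25, adjusted p = 0.000372). nbs, the third gene of the complex, had 16.4 and 15.1 CPM in E2F wings against 13.7 and 13.5 CPM in control wings at 24 h, and 10.7 and 11 CPM against 10.7 and 10.1 CPM at 44 h. Its log2 fold change at 24 h was 0.21 (SE 0.15, adjusted p = 0.336).

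okr had 20.8 and 23.7 CPM in E2F wings against 3.25 and 4.33 CPM in control wings at 24 h, and 17.6 and 16.3 CPM in E2F wings against 2.69 and 2.34 CPM in control wings at 44 h. The log2 fold changes were 2.54 (SE 0.25, adjusted p = 1.5e-05) and 2.75 (SE 0.29, adjusted p = 2.03e-05). Brca2 had 7.90 and 9.22 CPM in E2F wings against 8.01 and 8.61 CPM in control wings at 24 h (log2 fold change 0.04, SE 0.17, adjusted p = 0.89). At 44 h it had 11.8 and 11.7 CPM in E2F wings against 13.3 and 14.4 CPM in control wings.

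Rad51D and spn-B were nearly silent in control wings and clearly detected in E2F wings. Rad51D had 96 and 137 counts in E2F wings against 1 and 0 counts in control wings at 24 h, and 52 and 41 counts against 1 and 0 counts at 44 h. With 1 count in the control sum, the ratio at equal depth was 173 at 24 h (95% exact interval 30.8 to 6879) and 60.9 at 44 h (10.7 to 2431), for counting error only, and both adjusted p-values passed (2.84e-05 and 0.000201, edgeR). The antisense neighbour CG42382 stood at a mean of 4.14 CPM in E2F wings and 7.43 CPM in control wings at 24 h, with 3.41 CPM and 5.82 CPM at 44 h. spn-B had 41 and 43 counts in E2F wings against 2 and 2 counts in control wings at 24 h, and 23 and 20 counts against 3 and 0 counts at 44 h. Its ratios were 15.6 (5.88 to 58.7) and 9.39 (3.0 to 47.3), with adjusted p-values of 0.00131 and 0.00526. spn-B shares 14.2% of its exon bases with NK7.1 on the other strand, which had means of 53.6 CPM in E2F wings and 63.7 CPM in control wings at 24 h. okr shares 16.7% with Bem46, at 11 CPM in E2F wings and 13.3 CPM in control wings. The summed germline markers stood at 2.05 to 2.08 CPM in E2F wings, 1.14 to 1.69 CPM in E2F + CycD wings and 0.347 to 0.635 CPM in control wings at 24 h. At 44 h these sums were 0.225 to 0.821 CPM in E2F wings, 1.94 to 3.53 CPM in E2F + CycD wings and 0.244 to 0.389 CPM in control wings, and their part in the levels of the paralogues was not tested.

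In E2F + CycD wings, too, several members stood higher than in control wings. At 24 h, 4 of 9 were called higher (rad50, tefu, okr and Rad51D), beside 5.67% of all tested genes, and at 44 h 5 of 9 (the same 4 and spn-B), beside 15.1%. The members' median log2 fold change was 1.24 at 24 h and 1.12 at 44 h, against 0.01 and -0.06 over all genes tested. The comparisons of E2F and of E2F + CycD wings share their control libraries. Markers of other cell types moved in the 44 h comparison. Muscle markers summed to 20.1 to 28.3 CPM in E2F + CycD wings against 63.2 to 78.2 CPM in control wings, with 3 of 4 called lower, and neuron markers to 142 to 145 CPM against 230 to 253 CPM, with 2 of 3 called lower. The tracheal gene trh had 80.0 to 80.6 CPM in E2F + CycD wings against 106 to 125 CPM in control wings and was not called, and none of the 3 hemocyte markers tested was called. In E2F wings at 44 h, 1 of 4 muscle markers was called higher than in control wings and 1 lower. Of neuron markers 1 of 3, and of wing epithelium markers 1 of 5, were called lower there. At 24 h, 1 of 4 muscle markers was called higher in E2F wings. Of 2 germline genes tested, nanos was called higher in E2F + CycD wings at 44 h. The part of these markers in the result was not tested.

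rad50 had 18.3 and 16.4 CPM in E2F + CycD wings at 24 h and 12.7 and 16.8 CPM at 44 h, beside the control levels above, with log2 fold changes over control wings of 2.29 (SE 0.19, adjusted p = 5.92e-06) and 1.96 (SE 0.20, adjusted p = 1.14e-05). tefu had 34.6 and 34.9 CPM in E2F + CycD wings at 24 h and 28.3 and 38.8 CPM at 44 h, with 1.63 (SE 0.17, adjusted p = 4.75e-05) and 1.12 (SE 0.17, adjusted p = 0.000236), the second of which was 0.89 without E2F + CycD replicate 2. Both genes stood above every control library. okr had 11.4 and 6.77 CPM in E2F + CycD wings at 24 h and 7.76 and 7.24 CPM at 44 h, with 1.24 (SE 0.25, adjusted p = 0.00598) and 1.57 (SE 0.29, adjusted p = 0.000911). Its call at 24 h ended without control replicate 1 (adjusted p = 0.0652) and without E2F + CycD replicate 1 (log2 fold change 0.81, adjusted p = 0.0624).

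mre11 was not called at either stage with TMM scaling. It had 6.30 and 5.77 CPM in E2F + CycD wings against 8.81 and 5.66 CPM in control wings at 24 h (log2 fold change -0.25, SE 0.22, adjusted p = 0.509), and 5.25 and 5.83 CPM against 4.27 and 3.37 CPM at 44 h (0.53, SE 0.26, adjusted p = 0.105). With library totals, which shift the median gene of the 44 h comparison by 0.98, mre11 was at 1.51 there and was called (adjusted p = 0.00023). nbs had 12.8 and 14.7 CPM in E2F + CycD wings at 24 h and 14.3 and 12.2 CPM at 44 h, and Brca2 had 9.42 and 7.82 CPM at 24 h and 11.2 and 12 CPM at 44 h. Neither was called at either stage. Rad51D had 36 and 18 counts in E2F + CycD wings at 24 h and 11 and 8 counts at 44 h, a ratio over control wings of 46.5 (8.0 to 1870) and 9.11 (1.45 to 378), with adjusted p-values of 0.0013 and 0.0324. spn-B had 13 and 11 counts in E2F + CycD wings at 24 h and 18 and 17 counts at 44 h, a ratio of 5.17 (1.78 to 20.5, adjusted p = 0.0585) and 5.59 (1.76 to 28.4, adjusted p = 0.02). At 44 h both calls ended without control replicate 2 (adjusted p = 0.139 for Rad51D and 0.0963 for spn-B), without E2F + CycD replicate 1 (0.0901 and 0.0517) and without E2F + CycD replicate 2 (0.0551 and 0.0588). That for Rad51D also ended in DESeq2 (0.0781) and that for spn-B with only the compared libraries (0.0576). With only the compared libraries Rad51D was too low to be tested.

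spn-D had a pattern of its own. It had 8 and 12 counts in E2F + CycD wings, 0 and 1 counts in E2F wings and 3 and 0 counts in control wings at 24 h. The ratio of E2F + CycD to E2F wings was 23.1 (95% exact interval 3.70 to 959, counting error only), and spn-D was too low to enter the test across genes. At 44 h it had 4 and 7 counts in E2F + CycD wings, 2 and 1 counts in E2F wings and 6 and 0 counts in control wings. The control libraries span those of both other genotypes, and the ratio of E2F + CycD to E2F wings was 2.68 (95% exact interval 0.709 to 15).

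**Figure D3:**
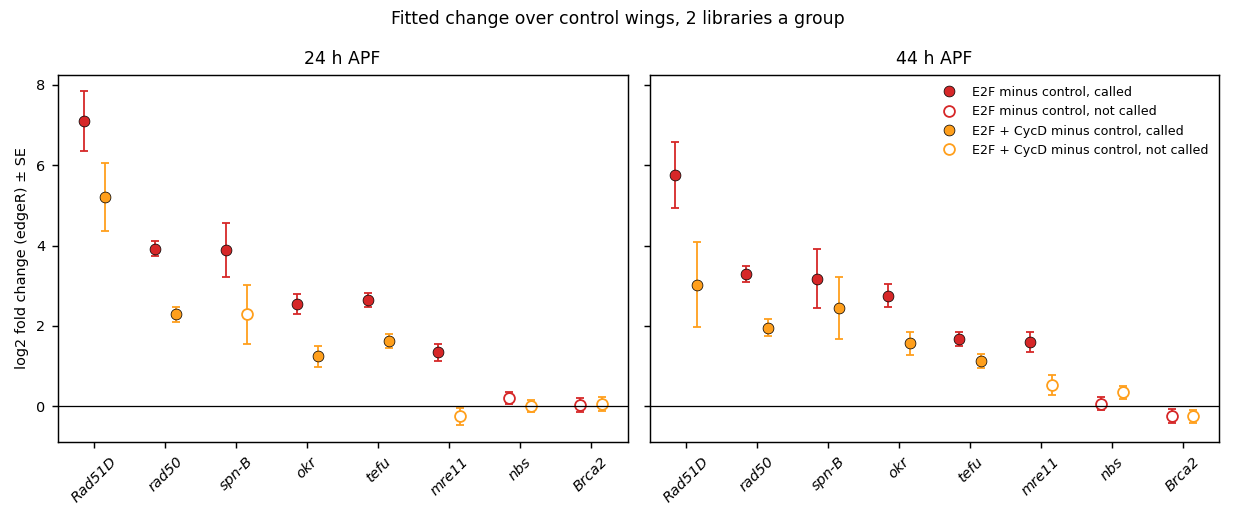
Fitted log2 fold change (y axis, edgeR, bars ± 1 SE) of E2F and of E2F + CycD wings over control wings for 8 of the members tested (x axis), at 24 h (left) and 44 h (right), with filled points for called genes and open points for the others. Each called gene lies higher for E2F than for E2F + CycD wings, and nbs and Brca2 lie near 0. The values of Rad51D and spn-B rest on control sums of 1 to 4 counts.

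Set against each other, E2F + CycD wings had lower levels of several members than E2F wings. At 24 h, 5 of 9 members were called lower in E2F + CycD wings, beside 3.95% of all tested genes: rad50 with a log2 fold change of -1.63 (SE 0.16, adjusted p = 0.00014), mre11 with -1.59 (SE 0.21, adjusted p = 0.000825), okr with -1.30 (SE 0.22, adjusted p = 0.00389), tefu with -1.0 (SE 0.16, adjusted p = 0.00238) and Rad51D with -1.89 (SE 0.43, adjusted p = 0.0154). At 44 h, 4 of 9 were called lower, beside 6.89% of genes: rad50 with -1.34 (SE 0.16, adjusted p = 0.000216), mre11 with -1.07 (SE 0.22, adjusted p = 0.00514), okr with -1.17 (SE 0.23, adjusted p = 0.00385) and Rad51D with -2.72 (SE 0.49, adjusted p = 0.00238). tefu was at -0.56 there (SE 0.16, adjusted p = 0.0259). The call of Rad51D at 24 h ended without E2F replicate 1 (adjusted p = 0.0503), E2F replicate 2 (0.137) or E2F + CycD replicate 2 (0.124). At the same stage okr stood at -0.97 without E2F + CycD replicate 2, and tefu at -0.91 without E2F replicate 2 and -0.99 without E2F + CycD replicate 1. tefu lay at the fold threshold and also missed it without the low-count filter (-0.98) and with only the compared libraries. mre11 at 44 h stood at -0.95 without E2F replicate 2 and -0.99 without E2F + CycD replicate 1. With library totals in place of TMM, which shifts the median gene of this comparison by 0.37, the 44 h values were -0.97 for rad50, -0.80 for okr and -0.69 for mre11, and only Rad51D was called.

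Between the 2 genotypes the lower members went with lower E2f1 and Dp, given above, and the part of these levels was not tested. In E2F wings E2f1 averaged 4120 CPM at 44 h and 3770 CPM at 24 h, and rad50 averaged 37.3 CPM at 44 h and 53.8 CPM at 24 h. The stages of E2F wings were not compared by a test. Of the replication genes, all 12 were called higher than in control wings in both genotypes and at both stages, with medians at 24 h of 4.29 for E2F and 3.84 for E2F + CycD, and at 44 h of 4.75 for E2F and 5.26 for E2F + CycD. Between the genotypes, E2F + CycD minus E2F, their median was -0.47 with 3 of 12 called lower at 24 h, and 0.14 with 1 of 12 called lower at 44 h. The members' medians were -1.30 and -0.74, and the difference between the lists was not tested.

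**Figure D4:**
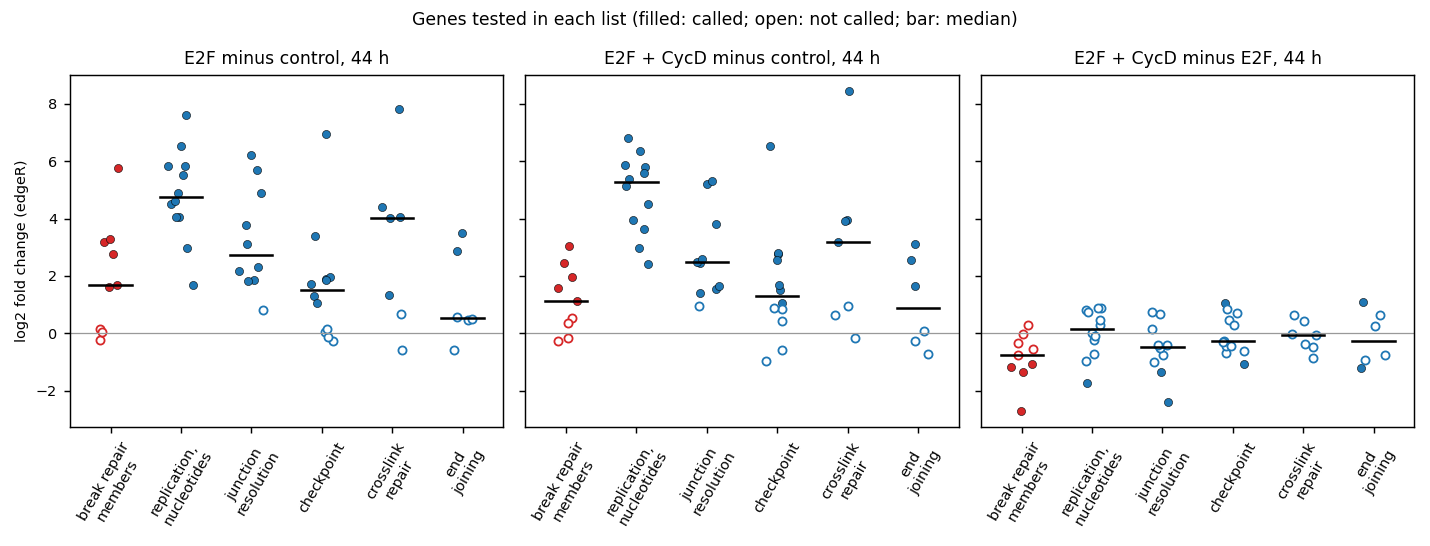
Fitted log2 fold change at 44 h (y axis, edgeR) of the tested genes in 6 lists (x axis), for E2F minus control (left), E2F + CycD minus control (middle) and E2F + CycD minus E2F wings (right), with filled points for called genes, open points for the others and a bar at each list's median. The break repair members have medians of 1.68, 1.12 and -0.74 and the replication genes 4.75, 5.26 and 0.14.

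Genes of other repair lists were called higher in both genotypes, to be read against all tested genes at 44 h, of which 12.6% (E2F) and 15.1% (E2F + CycD) were called higher. At that stage, 9 of 10 junction resolution genes were called higher than in control wings in E2F wings and 9 of 10 in E2F + CycD wings, RecQ4 by 5.70 (SE 0.35, adjusted p = 5.58e-07) and 5.30 (SE 0.36, adjusted p = 5.51e-07) on the log2 scale. Of 7 crosslink repair genes 5 and 4 were called higher, with medians of 4.01 and 3.18, of 12 checkpoint genes 8 and 7, with Claspin at 6.95 (SE 0.29) and 6.52 (SE 0.29), and of 4 telomere capping genes all 4 in both. Of 3 genes of resection and single-strand binding, 2 were called with E2F and 3 with E2F + CycD, tos with 4.96 (SE 0.56) and 5.34 (SE 0.54). End joining, the repair route that needs no template, had 2 of 6 genes called higher in E2F wings and 3 of 6 in E2F + CycD wings, where PolQ, the polymerase of the alternative end joining route, was at 3.11 (SE 0.22). SMC5/6 genes were called higher in 2 of 5 cases in both, SMC6 at 1.71 (SE 0.17) in E2F + CycD wings, and cohesin genes in 1 of 5 and 2 of 5, with SA1 at 1.30 (SE 0.16) and 1.45 (SE 0.16). The 3 meiotic break and crossover genes tested were not called at 44 h. Of 5 genes of the p53 damage response, 1 in E2F and 2 in E2F + CycD wings were called higher. The 1 of 5 in E2F wings, for the p53 genes as for the cohesin genes, lies near the share of all genes. The TNF ligand egr was at 1.58 (SE 0.29, adjusted p = 0.0012) in E2F wings and 2.28 (SE 0.29, adjusted p = 4.89e-05) in E2F + CycD wings.

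The genes of the Mre11 complex changed their proportions. Per kilobase of exon, the level of rad50 was 1.61 and 1.57 times that of nbs in wild-type L3 wings, 0.743 and 0.881 times at 18 h and 0.191 and 0.350 times at 36 h. In the transgenic wings at 24 h it was 2.07 and 2.30 times that of nbs in E2F wings, 0.916 and 0.714 times in E2F + CycD wings and 0.162 and 0.169 times in control wings. nbs was not called in any transgenic comparison. Its means at 24 h ran from 13.6 to 15.7 CPM against 3.54 to 53.8 CPM for rad50, so the transgenic ratios mostly follow rad50. In wild-type wings both genes moved. There nbs had means of 15.8 CPM at L3, 24.5 CPM at 18 h and 10.5 CPM at 36 h, and rad50 had 39.3, 31.0 and 4.13 CPM. Relative to mre11, rad50 per kilobase stood at 1.44 and 1.5 in E2F wings, at 1.44 and 1.41 in E2F + CycD wings and 0.196 and 0.313 in control wings at 24 h, so that both transgenic genotypes with E2F had more rad50 than mre11 and control wings less.

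The order of the levels per kilobase also differed between genotypes. In E2F wings at 24 h rad50 came first, at 13.1 and 13.4 CPM per kb, followed by mre11 at 9.08 and 8.94, tefu at 7.75 and 8.81 and okr at 7.23 and 8.24, of which tefu and okr overlap. nbs followed at 6.29 and 5.82, Rad51D at 2.53 and 3.48 and Brca2 at 2.40 and 2.8, which overlap, spn-B at 1.5 and 1.52 and spn-D at 0 and 0.0475. In control wings at 24 h nbs came first, at 5.28 and 5.20 CPM per kb, then mre11 at 4.38 and 2.81, Brca2 at 2.44 and 2.62, tefu at 1.2 and 1.46, okr at 1.13 and 1.51 and rad50 at 0.857 and 0.880. tefu and okr overlap there, and spn-B, spn-D and Rad51D were below all of these.

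In control wings at 44 h against 24 h no member was called by edgeR, beside 20.6% of all tested genes called higher and 16.3% called lower, and DESeq2 called none either, while 4 had an unadjusted p under 0.05. Brca2 was at 0.73 (SE 0.17, adjusted p = 0.00351) and mre11 at -0.90 (SE 0.25, adjusted p = 0.0101), short of the fold threshold, which mre11 passed without control 24 h replicate 2 (-1.22) and without control 44 h replicate 1 (-1.10). These values depend on the scaling. In control wings at 44 h the 50 most abundant genes took 45.7% and 46.7% of the counts, against 37.0% and 37.1% at 24 h. With library totals the median gene of this comparison shifted by -0.96, mre11 stood at -1.86, Brca2 at -0.22, and 3 members were called.

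Whether the effect of the transgenes differed between the stages was tested as an interaction. For the E2F effect at 44 h minus that at 24 h, edgeR called no member, beside 6.16% of genes called higher and 7.50% called lower, and 3 members had an unadjusted p under 0.05. tefu had a difference of -0.96 (SE 0.24, adjusted p = 0.0177), just short of the fold threshold, which it passed without control 24 h replicate 2 (-1.10) or E2F 24 h replicate 1 (-1.02). For the E2F + CycD effect no member was called either, beside 7.98% and 9.68% of genes, and 1 had an unadjusted p under 0.05. DESeq2 called none in either test.

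Across the 12 group means, the gene most like each member was named by the highest Pearson correlation of log2 CPM. All 24 libraries were scaled together for these correlations, which are a description, and depth differs between wild-type and transgenic libraries. Several group means of Rad51D, spn-B and spn-D lie near the floor, which limits what their correlations can show. Rad51D and rad50 were each other's nearest gene (r = 0.980). okr lay nearest to Nup93-1 (r = 0.968), tefu to esc (0.966), mre11 to Ada2a (0.957) and spn-B to Cdc45, which encodes a part of the replicative helicase (0.940). Brca2 lay nearest to pHCl-1 (0.916), spn-D to Polr1H (0.913) and nbs to Miro (0.854). Among the members themselves, the correlation over the 6 wild-type stages had a median of 0.79 over 45 pairs and ran from -0.81 to 0.99, with 8 pairs negative. Over the 6 transgenic groups it had a median of 0.52 and ran from -0.83 to 0.99, with 16 pairs negative. Every negative pair holds Brca2 in the wild-type set, and Brca2 or spn-D in the transgenic set, where spn-D was too low to be tested.

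By position (dm6, Ensembl gene models), the members are spread over 4 chromosome arms. tefu (FBgn0045035) at chr3R:15232212-15242236 has the longest exon length, 8416 bases. spn-B (FBgn0003480) lies at chr3R:14328051-14329608 and spn-D (FBgn0003482) at chr3R:27165716-27167122. okr (FBgn0002989) at chr2L:2989594-2992759 and mre11 (FBgn0020270) at chr2L:11282090-11284335 share an arm, as do Rad51D (FBgn0033389) at chr2R:9165632-9167670, rad50 (FBgn0034728) at chr2R:22421013-22425482 and Brca2 (FBgn0050169) at chr2R:24526172-24529581. nbs (FBgn0261530) lies at chr3L:9720414-9723194. The members that were high in E2F wings are thus found on arms 2L, 2R and 3R, and no exon of a member overlaps another gene on its own strand.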

How the data were processed

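Female wings were sequenced as stranded mRNA libraries. The authors aligned reads to dm6 with STAR, counted them per gene with HTSeq and deposited raw counts for each library. The tool versions, annotation release and strand setting are not given in the sources used here, so reads of overlapping antisense genes cannot be told apart with certainty. HTSeq's summary rows were left out. Alignments that were not unique, for example, made up 31.6% to 62.8% of all counts of a library, summary rows included. FAIRE-seq samples, 34 in number, were not used here.

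Groups and replicate numbers came from the labels. Nothing says that replicates came from separate animals, so p-values measure the spread between these libraries, and no batch is given. Counts were fitted in R 4.3.3 with edgeR 4.0.16 (TMM, a minimum count of 10 and minimum total of 15, quasi-likelihood F-test, Benjamini-Hochberg over 8669 wild-type and 9636 transgenic genes), separately for the 12 wild-type and 12 transgenic libraries. The common biological coefficient of variation was 20.2% and 16.4%. The standard error is the log2 fold change divided by the root of F. Replicates differed by more than sampling noise in all 12 groups. Symbols and exon lengths came from Ensembl's annotation of dm6. Count ratios have exact (Clopper-Pearson) intervals in SciPy 1.17.1. The scripts were tested on simulated counts.

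Results for 1 of the 10 members are not reported here. Named genes are the other members, the transgenes, in other lists the called gene with the largest change per direction in 3 comparisons, and each member's nearest gene. The members and lists were chosen with earlier results of these data known. Alternatives were DESeq2 1.42.0, RLE scaling, library totals, no low-count filter, a block for replicate number, a fit of the compared groups alone, and leaving out each library in turn.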

Additional observations from a re-analysis of the deposited data

Results flagged for a closer look

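The effect of E2F on tefu, the ATM kinase gene, differed between the stages by the interaction test. The log2 fold change of E2F over control wings was 1.68 at 44 h and 2.64 at 24 h, a difference of -0.96 (SE 0.24, adjusted p = 0.0177 over all genes tested, edgeR). tefu had 51.2 and 47.5 CPM in E2F wings against 16.0 and 14.8 CPM in control wings at 44 h, and 65.3 and 74.1 CPM in E2F wings against 10.1 and 12.2 CPM in control wings at 24 h. The difference ran from -1.10 to -0.81 with each of the 8 libraries left out, with adjusted p-values of 0.0294 to 0.0813, and was -0.51 with library totals (adjusted p = 0.187).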

How the results depend on the processing

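None of the 46 called changes of the named members reversed under an alternative. Those over all stages, which are among the 46, could not reverse, since a largest difference between stages is positive by definition. With another tool, scaling, filter, block or set of libraries, 254 of 267 values were called as before, as were 212 of 240 with 1 library left out. With only the compared groups, Rad51D in E2F + CycD against control wings at 44 h was below the low-count filter. So was spn-D at 18 h against 6 h, and the 267 values leave these fits out. The counts of called members moved most with library totals, to 8 at 6 h against L3, 4 at 18 h against 6 h, 4 at 36 h against 24 h, 1 for E2F + CycD against E2F wings at 44 h, 3 for control wings at 44 h against 24 h and 3 for the stage difference of the E2F + CycD effect, where the median gene shifted by between -0.96 and 0.98 on the log2 scale over the comparisons. With them the share of higher among all called genes was 83.2% in place of 54.7% for E2F and 87.0% in place of 48.4% for E2F + CycD against control wings at 44 h, 73.2% in place of 40.7% for E2F + CycD against E2F wings at 44 h, 21.3% in place of 55.8% for control wings at 44 h against 24 h, 76.2% in place of 45.1% and 86.6% in place of 45.2% for the stage differences of the E2F and E2F + CycD effects, and 28.6%, 70.9%, 33.5%, 37.1% and 33.4% in place of 54.8%, 45.8%, 44.8%, 58.1% and 53% for the 5 wild-type steps in order. The count at 18 h against 6 h was 1 without the low-count filter, in DESeq2 and with only the compared groups. That last fit also gave 1 at 6 h against L3 and 3 for E2F + CycD against control wings at 44 h. Leaving out 1 library gave 1 to 3 members at 6 h against L3, 1 to 2 at 18 h against 6 h, 0 to 3 at 24 h against 18 h, 1 to 3 at 36 h against 24 h, 1 to 2 at 44 h against 36 h, 2 to 5 for E2F + CycD against control wings at 44 h, 3 to 4 for E2F + CycD against E2F wings at 24 h, 0 to 1 for control wings at 44 h against 24 h, and 0 to 1 for both stage differences. The lone library left in a group is assumed to vary like the others. Near 0, Brca2 in E2F against control wings at 24 h was -0.02 with RLE scaling and in DESeq2 and -0.08 to 0.14 with a library left out, and Brca2 in control wings at 44 h against 24 h was -0.22 with library totals. With a library left out, mre11 in E2F + CycD against control wings at 24 h ran from -0.54 to 0.09. The causes were not tested, beyond the fewer samples and genes these settings use. Depth limits Rad51D, spn-B and spn-D, whose control and late wild-type libraries held few counts.

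The labels do not say whether the replicate numbers pair the libraries, and the correlations given here cannot exclude it. How far libraries of 1 number lay from the means of their groups correlated between -0.157 and 0.209 over 15 pairs of wild-type groups (over 0.1 in 2) and between -0.0689 and 0.130 over 15 pairs of transgenic groups (over 0.1 in 5). With the replicate number as a block the calls were 8 over all stages, 7 and 6 in E2F and 4 and 5 in E2F + CycD against control wings, and 1 at 18 h against 6 h, where spn-D was lost. It changed no other count.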

Other observations

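With all 24 libraries scaled together, levels in transgenic and wild-type wings can be set side by side as values, without a test, since genotype, temperature, depth and stage cannot be told apart there. Control wings at 24 h had less rad50 and mre11 than wild-type wings of that stage: rad50 had 4.15 and 4.26 CPM in control wings against 9.40 and 11.3 CPM in wild-type wings, and mre11 10.5 and 6.73 CPM against 20.5 and 25.5 CPM. The tefu libraries overlapped, with 12 and 14.5 CPM in control wings against 11.5 and 12.1 CPM in wild-type wings.

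E2F wings at 24 h stood above the dividing L3 wing for some members and below it for others. rad50 had 57.2 and 58.1 CPM in E2F wings against 37.5 and 34.0 CPM in wild-type L3 wings, tefu 70.3 and 79.2 CPM against 40.3 and 39.6 CPM, and okr 22.4 and 25.3 CPM against 9.25 and 11.3 CPM. mre11 had 19.7 and 19.2 CPM in E2F wings against 44.2 and 44.9 CPM in L3 wings, and spn-D 0 and 0.0521 CPM against 2.70 and 2.77 CPM. Rad51D had 5.23 and 7.13 CPM in E2F wings against 1.77 and 2.02 CPM in L3 wings, and nbs 17.6 and 16.1 CPM against 14.9 and 13.9 CPM. For spn-B the levels were 2.24 and 2.24 CPM against 2.29 and 2.52 CPM. The Brca2 libraries overlapped, with 8.51 and 9.84 CPM in E2F wings against 9.25 and 7.31 CPM in L3 wings.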
